A study of Homo sapiens with 8 samples.

Results

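Among the 3666 genes of the authors' deposited table, 117 carry the symbol of a noncoding RNA gene, and these 117 were followed across both sorted fractions of the cell line. They were taken by symbol alone, with no measured value: LINC followed by a digit for long intergenic RNAs, the endings -AS and -IT for RNAs antisense to or inside the intron of another gene, SNHG for host genes of small nucleolar RNAs (snoRNAs), SNOR and SCARNA for the snoRNAs themselves, and MIR followed by a digit for microRNA loci. The symbols gave 27 long intergenic, 51 antisense, 4 intronic, 8 SNHG and 3 microRNA host genes, and 24 small RNA genes, of which 15 were snoRNAs and 9 microRNA hairpins. No SCARNA gene was among them. The annotation (GENCODE release 29, GRCh38) gives 5 of the 114 genes found in it as something other than a noncoding RNA gene: NCBP2-AS2 and LINC00176 as protein-coding genes, and SVIL-AS1, CRHR1-IT1 and PSMD5-AS1 as transcribed pseudogenes. Some genes also have another noncoding type than their symbol: LINC00982, LINC00525 and LINC01573 are typed antisense, and FOXD2-AS1, RASAL2-AS1, IBA57-AS1, ZNF295-AS1 and PSMG3-AS1 long intergenic.

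Long noncoding RNAs are transcribed, spliced and mostly polyadenylated like messenger RNAs, and some act in chromatin, as decoys for RNA-binding proteins or through the act of transcription beside a neighbouring gene. SNHG genes are spliced to exons with no conserved protein, while their introns are processed to snoRNAs; the spliced remainder is often degraded by nonsense-mediated decay during translation. Box C/D snoRNAs guide the methylation of ribosomal RNA, and box H/ACA snoRNAs guide its pseudouridylation. MicroRNA hairpins are cut from longer transcripts and end as short RNAs that repress messenger RNAs through a short seed. In pancreatic cancer, several of these RNAs, such as LINC00673 and miR-221, have been studied for their part in growth.

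MIA PaCa-2, an established human pancreatic ductal adenocarcinoma line, was sorted by flow cytometry for how readily lactic acid passes into the cells. The 2 extremes of the sort were named PHLac-low and PHLac-high, the series describes them as extremes in a measure of metabolic rate, and the sort was repeated 4 times, which gave 4 libraries of each fraction, paired within a repeat. All cells were wild type with no drug treatment, grew in the same serum-containing RPMI medium, and were briefly exposed to lactate and washed before the sort, PHLac-low and PHLac-high alike. Whether each repeat was a separate culture is not stated, so p-values measure the spread between these sorts.

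Each value is a normalised count, the reads of a gene divided by the size factor of the library, and is not corrected for gene length. All 8 columns were whole multiples of 1 read within 0.01 read, so the reads could be recovered: 8979276 to 23176205 reads per library fell in the listed genes, and the 117 genes held 0.375 to 0.566% of them. Repeat 4 stood apart along the leading axis of a principal component analysis, which held 54.7% of the variance: its PHLac-low library scored -6.88 where the other PHLac-low libraries scored -25.9 to -24.5, and its PHLac-high library scored 33.4 against 14.1 to 18.5. Of the ductal markers looked for, KRT19 (log2 change 0.23) and SOX9 (1.15) were listed. Markers of other cells were listed too: the fibroblast collagens COL1A1 (-0.64) and COL3A1 (-1.13), and the leukocyte genes PTPRC (-1.36) and CD14 (0.47), 2 of 6 and 2 of 4 genes of their lists. Their part in the results was not tested. Every listed gene has an adjusted p of 0.05 or less in the authors' deposited table, so a gene had to differ to be seen here, and genes that did not differ are not analysed here.

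All 15 snoRNA genes fell in PHLac-high, and the sequences of some of them are given first. Whether sequence had a part in the change was not tested. The following are the 5 snoRNAs that lie inside a listed host gene, with the 2 most counted snoRNAs, each from the GENCODE transcript (release 29, GRCh38). Capitals mark TGATG near the start and CTGA near the end of box C/D snoRNAs, the cores of boxes C and D, and the ACA that precedes the last 3 bases of H/ACA snoRNAs.
SNORD45A: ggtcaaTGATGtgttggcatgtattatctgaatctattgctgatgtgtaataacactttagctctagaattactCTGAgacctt
SNORD45B: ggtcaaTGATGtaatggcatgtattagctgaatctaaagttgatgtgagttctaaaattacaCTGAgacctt
SNORD102: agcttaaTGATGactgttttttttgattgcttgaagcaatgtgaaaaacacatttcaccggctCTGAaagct
SNORD110: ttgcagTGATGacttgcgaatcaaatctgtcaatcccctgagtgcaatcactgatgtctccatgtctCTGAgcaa
SNORA27: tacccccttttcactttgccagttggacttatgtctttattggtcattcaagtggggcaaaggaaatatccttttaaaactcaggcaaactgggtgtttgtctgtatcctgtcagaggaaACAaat
SNORA9: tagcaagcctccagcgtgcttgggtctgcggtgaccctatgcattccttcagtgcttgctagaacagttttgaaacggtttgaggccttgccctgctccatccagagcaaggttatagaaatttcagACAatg
SNORA70: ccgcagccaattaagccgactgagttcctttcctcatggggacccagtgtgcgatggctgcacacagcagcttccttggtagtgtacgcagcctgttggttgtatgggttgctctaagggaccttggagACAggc
SNORD45A is at chr1:75787889-75787972 and SNORD45B at chr1:75789477-75789548, both on the plus strand in RABGGTB, a subunit of the enzyme that prenylates Rab proteins. SNORD102 (chr13:27255064-27255135) and SNORA27 (chr13:27255401-27255526) share RPL21, and SNORD110 (chr20:2654212-2654286) lies in NOP56, itself a core protein of box C/D particles. SNORA9 (chr7:44985378-44985510, minus strand) lies in SNHG15 and SNORA70 (chrX:154400281-154400415) in RPL10. Neither of these hosts is listed. SNORA70 has related copies elsewhere in the genome, so its counts are uncertain. All 8 SNORD members held TGATG in their first 15 bases, as did 80.2% of the 288 SNORD transcripts of the annotation, and all 8 held CTGA in their last 15 bases, as did 91.3%. The ACA stood 3 bases before the end in 6 of 7 SNORA members and in 75.2% of 149 SNORA transcripts. Only the strand given was searched, since a snoRNA is read from 1 strand.

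The 9 microRNA hairpins give 14 mature microRNAs in RefSeq (GRCh38.p14), with 14 different seeds, so that no pair shares a seed. Those of the 3 hairpins in listed hosts and of the 2 hairpins that rose are printed with the seed (bases 2 to 8) in capitals.
hsa-miR-5047: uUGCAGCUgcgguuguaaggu
hsa-miR-3064-5p: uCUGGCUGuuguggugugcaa
hsa-miR-3064-3p: uUGCCACAcugcaacaccuuaca
hsa-miR-3153: gGGGAAAGcgaguagggacauuu
hsa-miR-221-3p: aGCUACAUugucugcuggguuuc
hsa-miR-3682-5p: cUACUUCUaccuguguuaucau
hsa-miR-3682-3p: uGAUGAUAcagguggagguag
miR-5047 (chr17:64501230-64501250) and miR-3064 come from the minus strand of DDX5, an RNA helicase that assists microRNA processing, and miR-3153 (chr9:89312274-89312296) from CKS2, a cyclin-dependent kinase subunit. The libraries were made from selected messenger RNA, so the counts are reads over these loci and do not measure the mature small RNAs.

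In the limma fit over all listed genes with the repeat as a block, 116 of the 117 noncoding genes passed an adjusted p of 0.05, 33 higher and 83 lower in PHLac-high. Of all listed genes 99.9% passed, 58.7% higher and 41.2% lower, so passing is a property of the table; the direction is what set the noncoding genes beside the rest. Their median log2 change was -0.72, while that of all listed genes was 0.25. The change was at least 1 in size for 52 noncoding genes and for 11.1% of all listed genes: 41 were at -1 or lower (5.21% of all listed genes) and 11 at 1 or higher (5.92%). In 57 the libraries of PHLac-low and PHLac-high did not overlap, against 36.7% of listed genes, and 110 moved the same way in all 4 repeats, against 96.1%. CYP1B1-AS1 alone missed the threshold (0.88 ± 0.39 SE on the log2 scale, limma adjusted p = 0.051) and passed in edgeR and DESeq2.

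The count of higher calls depended on the scaling. Upper-quartile scaling took its quartile over the listed genes alone, all selected as differing, of which 58.7% were higher. It lowered the median change of all listed genes by 0.22. A quartile with unlisted genes included was not tested. Under upper-quartile scaling 100 noncoding genes passed (64.4% of all listed genes), 17 higher (23.2%) and 83 lower (41.2%). The 16 that no longer passed had all been higher: SNHG4, SNHG8, SNHG10, SNHG12, SNHG16, LINC00152, LINC00641, LINC01128, ARHGAP5-AS1, GATA2-AS1, NCBP2-AS2, NR2F1-AS1, THAP9-AS1, ZNF295-AS1, MIR221 and MIR4435-2HG. A fit without the repeat block called 54 (31.0% of all listed genes), 13 higher (20.3%) and 41 lower (10.7%).

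**Figure D1:**
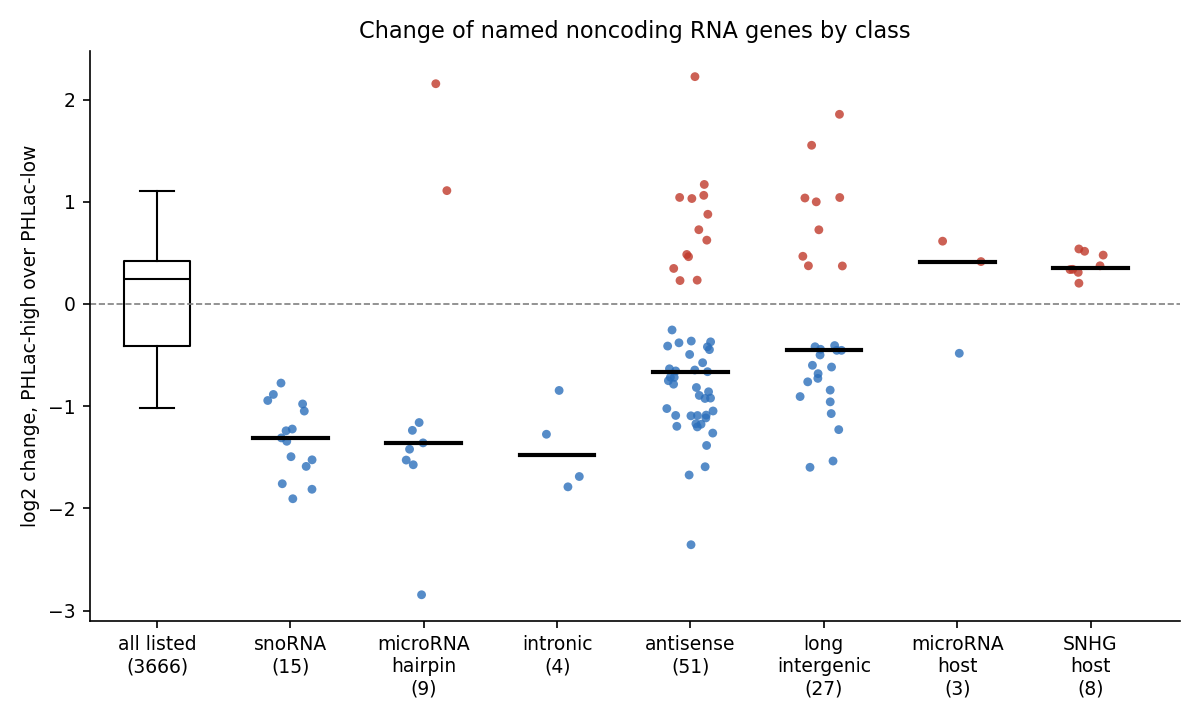
Log2 change (limma, log2 of normalised count + 1, PHLac-high over PHLac-low) of each noncoding gene by class, 1 point a gene, with a black line at the class median; red points are above 0 and blue below. The box gives the median and quartiles of all 3666 listed genes with whiskers at the 5th and 95th percentiles. All 15 snoRNAs and all 4 intronic genes lie below 0, all 8 SNHG genes above.

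Level and direction went together. Of the 58 noncoding genes with a mean under 100 normalised counts, 50 fell (86.2%), whereas 62.6% of all listed genes at that level did and 58.1% of the 303 that are not in these classes. Between 100 and 1000 normalised counts 67.4% of 46 noncoding genes fell and 61.7% of the other listed genes. At 1000 or more, 11 of 13 noncoding genes rose (84.6%), and so did 74.1% of the others. The classes also differ in length and base composition: the median annotated length was 94.5 bases for small RNA genes and 2188 for antisense genes, and the median GC content was 48.0% for noncoding genes that rose and 51.1% for those that fell. Their part in the direction was not tested.

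Every snoRNA was lower in PHLac-high in each of the 4 repeats. Of listed genes with a mean under 100, 62.6% were lower. The median log2 change of the snoRNAs was -1.31, with a range from -1.91 (SNORD94) to -0.77 (SNORA70). In 9 snoRNAs the PHLac-low and PHLac-high libraries did not overlap, where 49.3% of listed genes with a mean under 100 did not. The class median was -1.15, -1.57, -1.35 and -1.09 in repeats 1 to 4, and the summed normalised count of the snoRNAs in PHLac-high was 51.4, 40.6, 40.7 and 50.5% of that in PHLac-low. The 8 box C/D genes had a median of -1.51 and the 7 H/ACA genes a median of -1.05, a difference that was not tested. Reads are few: SNORA45B had 1 to 34 reads per library and SNORA70, the most counted, 81 to 468.

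SNORA70 had normalised counts of 142, 128, 224 and 214 in PHLac-low and 98.2, 82.0, 101 and 123 in PHLac-high. The highest PHLac-high library was below the lowest PHLac-low library, and the log2 change was -0.77 ± 0.15 SE (limma adjusted p = 0.002). SNORA9 had normalised counts of 103, 111, 126 and 109.9 in PHLac-low and 49.1, 46.6, 56.1 and 64.9 in PHLac-high, with a wider gap between PHLac-low and PHLac-high and a log2 change of -1.05 ± 0.17 (limma adjusted p = 9.3e-04). Among box C/D genes, SNORD32A had normalised counts of 70.3, 43.1, 47.0 and 71.9 in PHLac-low and 25.7, 14.2, 17.9 and 45.0 in PHLac-high. Its PHLac-high library of repeat 4 reached into the PHLac-low range, while each repeat by itself was lower in PHLac-high. The remaining box C/D genes had log2 changes of -1.49 (SNORD45A), -1.52 (SNORD45B), -1.31 (SNORD102), -1.59 (SNORD10), -1.76 (SNORD52) and -0.94 (SNORD110). The remaining H/ACA genes had log2 changes of -0.89 (SNORA52), -1.81 (SNORA45B), -1.34 (SNORA27), -0.98 (SNORA6) and -1.22 (SNORA81). SNORD110 no longer passed without repeat 2, nor did SNORA52 and SNORA45B without repeat 3.

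The annotation places 22 of the 24 small RNA genes, and all 15 snoRNAs, inside a gene on the same strand. None touches an exon of a host transcript typed protein-coding, while 15, of which 13 are snoRNAs, touch an exon of a host transcript of another type. Reads over these loci can come from the small RNA, from such a transcript or from unspliced host RNA, which cannot be told apart. The hosts of 8 small RNA genes are listed, and all 5 of those hosts rose: RABGGTB (0.32 ± 0.07 SE), RPL21 (0.20 ± 0.06), DDX5 (0.54 ± 0.05), NOP56 (0.37 ± 0.06) and CKS2 (0.32 ± 0.06). Each host had a mean of 1000 or more, where 74.2% of listed genes rose. Each of the 8 small RNA genes fell. All but MIR5047 had a mean under 100, where 62.6% of listed genes fell. From 100 to 1000, the level of MIR5047, 61.9% fell. This comparison with hosts was chosen after the values were seen.

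SNORD45A had normalised counts of 22.3, 20.9, 34.0 and 51.4 in PHLac-low and 11.7, 10.1, 7.16 and 11.9 in PHLac-high. Its host RABGGTB had normalised counts of 4342, 5045, 4019 and 4196 in PHLac-low and 5139, 5716, 5727 and 5362 in PHLac-high. The snoRNA groups did not overlap, and the within-repeat change of the snoRNA minus that of its host averaged -1.82 ± 0.39 (SEM, n = 4). SNORD45B, also in RABGGTB, had normalised counts of 24.0, 24.6, 28.8 and 24.6 in PHLac-low and 8.18, 7.09, 8.35 and 9.27 in PHLac-high and a difference from the host of -1.85 ± 0.12. In RPL21 the difference was -1.51 ± 0.19 for SNORD102 and -1.54 ± 0.29 for SNORA27, and for SNORD110 in NOP56 it was -1.31 ± 0.39. All 4 repeats gave a difference below 0 in each of the 8 pairs, for which an exact two-sided sign-flip test gives p = 0.13, the smallest that 4 repeats allow.

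**Figure D2:**
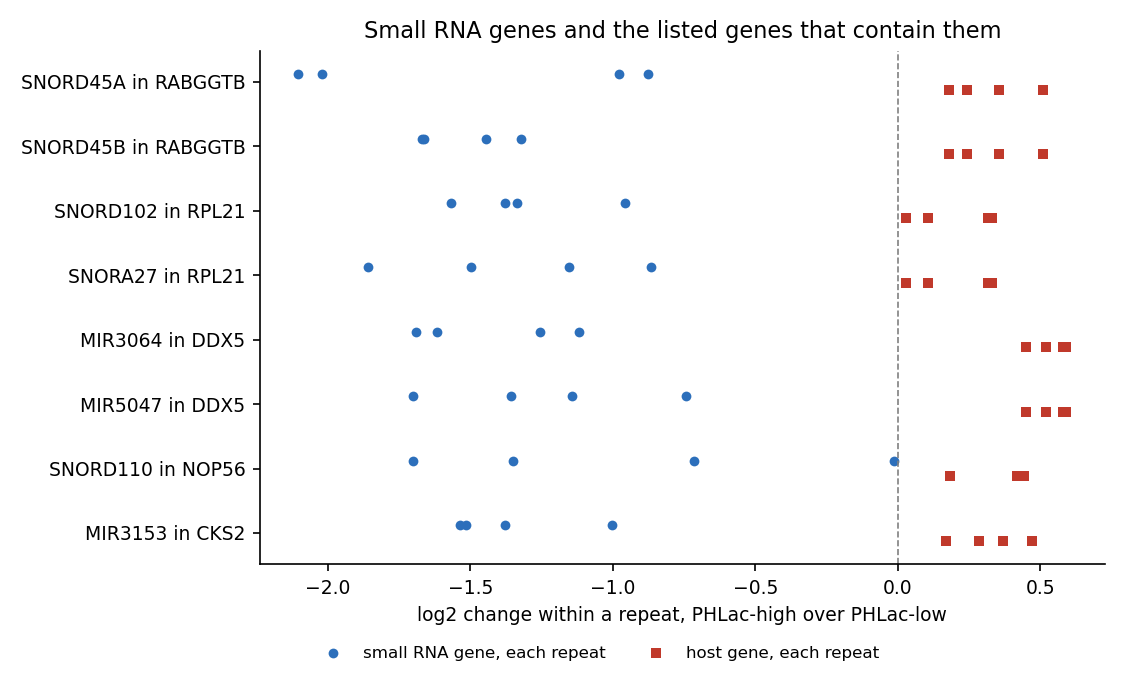
Log2 change within each of the 4 repeats (PHLac-high over PHLac-low) for 8 small RNA genes (blue circles) and the listed genes that contain them (red squares). All host points lie above 0 and all small RNA points below, with SNORD110 in repeat 1 at -0.01.

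Of the 9 microRNA hairpins, 7 fell and 2 rose, with a median of -1.36. Of all listed genes 41.2% fell, and of those with a mean under 100, 62.6% did. MIR5047 had normalised counts of 229.8, 245, 239 and 606 in PHLac-low and 137, 110.4, 72.8 and 236 in PHLac-high (log2 change -1.24 ± 0.16 SE, limma adjusted p = 3.7e-04). Repeat 4 was the highest library on each side, so the PHLac-low and PHLac-high ranges met, but every repeat was lower in PHLac-high. MIR3064, in the same host, had normalised counts of 52.3, 48.0, 55.6 and 109 in PHLac-low and 16.4, 14.2, 25.1 and 45.0 in PHLac-high, with PHLac-high entirely below PHLac-low. DDX5 itself had normalised counts of 32469, 28535, 30944 and 29204 in PHLac-low and 48535, 43005, 44401 and 39876 in PHLac-high, entirely higher in PHLac-high. The difference from DDX5 was -1.77 ± 0.18 for MIR5047 and -1.96 ± 0.17 for MIR3064, and from CKS2 it was -1.68 ± 0.11 for MIR3153 (SEM, n = 4). MIR324 (-1.16), MIR149 (-1.57), MIR631 (-1.53) and MIR3942 (-2.85) fell on 0 to 74 reads per library.

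MIR221 had normalised counts of 9.43, 17.2, 17.7 and 25.7 in PHLac-low and 47.9, 16.2, 65.6 and 35.7 in PHLac-high. It was higher in 3 repeats and lower in repeat 2, its ranges overlapped, and the change of 1.11 ± 0.41 SE on the log2 scale (limma adjusted p = 0.027) no longer passed without repeat 3 or without repeat 1, where it was 0.74. miR-221, its product, is known for repressing an inhibitor of the cell cycle. MIR3682 had normalised counts of 6.86, 0, 3.36 and 2.05 in PHLac-low and 18.7, 13.2, 15.5 and 7.94 in PHLac-high, with 0 to 16 reads behind each value, and a log2 change of 2.16 ± 0.58 (limma adjusted p = 0.0074).

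The SNHG genes moved the other way: all 8 rose. Their median log2 change was 0.36, with a range from 0.20 to 0.54, and the summed normalised count in PHLac-high was 136, 132, 131 and 130% of that in PHLac-low in repeats 1 to 4. In 3 of the 8 (SNHG7, SNHG12 and SNHG17) the PHLac-low and PHLac-high libraries did not overlap, a share close to the 36.7% of all listed genes. Listed genes with a mean of 1000 or more had a median of 0.28, and 74.2% of them were higher. Under upper-quartile scaling, which lowers the median of all listed genes by 0.22 and turns the share of higher calls from 58.8 to 36.0%, 3 of 8 passed, where 64.4% of all listed genes passed and 23.2% were higher, and SNHG16 was at -0.02. A fit without the repeat block also left 3 of 8, where 31.0% of all listed genes passed and 20.3% were higher.

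SNHG7, a host gene at chr9:136721366-136728184, had normalised counts of 2935, 3381, 3363 and 2878 in PHLac-low and 4465, 4684, 4660.5 and 4118 in PHLac-high. Every PHLac-high library was above every PHLac-low library, and the log2 change was 0.52 ± 0.06 SE (limma adjusted p = 1.7e-04). SNHG1 (chr11:62851988-62855914), whose introns hold SNORD22 and SNORD25 to SNORD28, had normalised counts of 1540.2, 1711, 1768 and 2451 in PHLac-low and 2191, 2593, 2652 and 3376 in PHLac-high. Repeat 4 was high on both sides, the ranges overlapped, and the within-repeat changes of 0.51, 0.60, 0.58 and 0.46 were all above 0 (log2 change 0.54 ± 0.06, limma adjusted p = 1.9e-04). SNHG16 (chr17:76557766-76565348), the host of SNORD1A to SNORD1C, had normalised counts of 2637, 3523, 2961 and 2994 in PHLac-low and 3001, 4109.5, 3408 and 3444 in PHLac-high and the smallest change of the 8 (0.20 ± 0.05, limma adjusted p = 0.0065). Here repeat 2 was the highest on both sides.

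SNHG17 had normalised counts of 943, 1195, 1132 and 895 in PHLac-low and 1422, 1601, 1297 and 1459 in PHLac-high and a log2 change of 0.48 ± 0.09. SNHG8 had normalised counts of 1247, 1167, 1587 and 1138 in PHLac-low and 1647, 1777, 2103 and 1205 in PHLac-high and a log2 change of 0.37 ± 0.09. In SNHG8 repeat 4 changed least, and its PHLac-high library lay inside the PHLac-low range. SNHG12 (0.31), SNHG4 (0.34) and SNHG10 (0.34) also rose, and SNHG4 and SNHG10 did not pass without repeat 1. None of the snoRNAs annotated inside the 8 SNHG genes is listed.

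**Figure D3:**
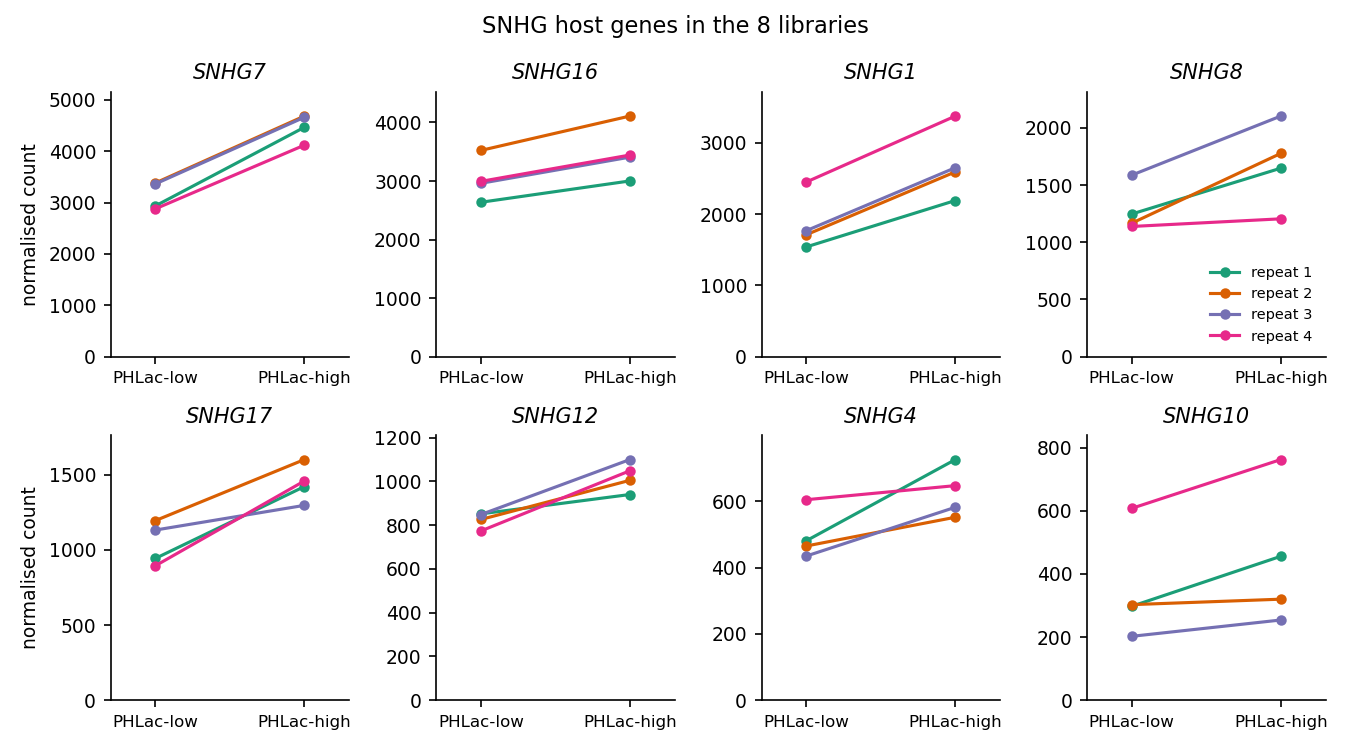
Normalised counts of the 8 SNHG host genes in each library, with a line joining the PHLac-low and PHLac-high library of a repeat (colours give the repeat; each vertical axis starts at 0). Every line rises from left to right, and SNHG7, SNHG12 and SNHG17 are the genes whose PHLac-high points all lie above the PHLac-low points.

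Several snoRNA host genes belong to the genes whose transcripts begin with a C and a run of pyrimidines, a feature of messenger RNAs whose translation follows growth signals. The first 25 bases from the RefSeq start (GRCh38.p14) are shown for the 8 SNHG genes, to see whether the genes that rose together share it, with the opening run of C and T in capitals.
SNHG12: CCTTTCTCCCCgccgcattcccggt
SNHG4: CCCTTTCCCCTCCggcctctgccgg
SNHG7: CTCTgcgtgcgccggaggctgccgt
SNHG1: CTCatttttctactgctcgtggtaa
SNHG8: Cacattcgggaagcgtcgggattag
SNHG16: gcgttcttttcgaggtcggccgcgt
SNHG17: agtccttcgccgtccctcgccgtcc
SNHG10: agcctcatcctactgccttactatt
A C followed by at least 4 pyrimidines opened 2 of the 8, SNHG12 (chr1:28581849-28581873, minus strand) and SNHG4 (chr5:139274101-139274125, plus strand), against 4.07% of the 35116 RefSeq promoters read the same way on their own strand. The other 6 begin with another base or a shorter run. Annotated starts can lie some bases from the start used in these cells.

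Of the 3 microRNA host genes, 2 rose and 1 fell, where 58.7% of all listed genes rose and 41.2% fell. MIR22HG, the host of miR-22 at chr17:1711493-1717174, had normalised counts of 895, 762, 968 and 382 in PHLac-low and 1289.7, 1163, 1552 and 597 in PHLac-high. Repeat 4 was low on both sides, which made the ranges overlap, and the within-repeat changes of 0.53, 0.61, 0.68 and 0.64 were close to each other (log2 change 0.61 ± 0.07 SE, limma adjusted p = 2.2e-04). MIR4435-2HG (chr2:111036776-111523376) had normalised counts of 1539, 1609, 1733 and 1685 in PHLac-low and 2068, 2424, 2470.4 and 1847 in PHLac-high, with no overlap and a log2 change of 0.42 ± 0.08 (limma adjusted p = 0.0023). MIR4697HG (chr11:133896438-133901601), whose symbol RefSeq lists under IGSF9B, fell in every repeat (log2 change -0.48 ± 0.12, limma adjusted p = 0.0057). Its normalised counts were 266, 506, 319 and 200.3 in PHLac-low and 207, 298, 214 and 171 in PHLac-high.

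Among the 27 long intergenic genes, 9 rose and 18 fell, with a median log2 change of -0.45. Of all listed genes 58.7% rose and 41.2% fell. The 9 long intergenic genes that rose had a median level of 388 normalised counts and the 18 that fell one of 135. The summed normalised count of the class in PHLac-high was 140, 135, 149 and 111% of that in PHLac-low. LINC00657 alone held 6117 to 7632 of the 15253 to 16289 summed in PHLac-low. In PHLac-high it held 10455 to 12996 of 18033 to 23623, so the sum largely follows this 1 gene. LINC00657 (chr20:36045622-36050960), named NORAD in RefSeq and known to bind Pumilio proteins and to guard chromosome number, had normalised counts of 6117, 7596, 7114 and 7632 in PHLac-low and 11849, 11732, 12996 and 10455 in PHLac-high. All PHLac-high libraries were far above all PHLac-low libraries, and the log2 change was 0.73 ± 0.08 SE (limma adjusted p = 2.1e-04). LINC00152 (chr2:87454781-87636740), named CYTOR in RefSeq, had normalised counts of 1774, 1891, 2292 and 1937 in PHLac-low and 2365, 2727, 3027 and 2150.1 in PHLac-high and a log2 change of 0.37 ± 0.07 (limma adjusted p = 0.0022). It is a near copy of MIR4435-2HG, so reads of the pair may have been split or shared and each value is uncertain. LINC01468 (chr10:52450874-52755409), named LNCAROD in RefSeq, had normalised counts of 1666, 960.1, 880.0 and 1482 in PHLac-low and 972, 769.8, 624 and 1269.7 in PHLac-high and fell in every repeat (log2 change -0.45 ± 0.10, limma adjusted p = 0.0031).

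The largest increases of long intergenic genes with a mean of at least 50 came at lower levels. LINC00673, studied in pancreatic cancer, had normalised counts of 78.0, 77.5, 110.3 and 106 in PHLac-low and 442, 381, 358 and 208 in PHLac-high. The groups were far apart, with repeat 4 the lowest in PHLac-high (log2 change 1.86 ± 0.23 SE, limma adjusted p = 3.1e-04). LINC01132 (chr1:234724042-234736720) had normalised counts of 47.2, 33.2, 34.5 and 35.9 in PHLac-low and 148, 125, 157 and 53.0 in PHLac-high (log2 change 1.55 ± 0.27, limma adjusted p = 0.0013), again with repeat 4 lowest in PHLac-high. LINC00346 (chr13:110863987-110870251) had normalised counts of 459.7, 325, 498 and 554 in PHLac-low and 862, 967, 1332 and 669.9 in PHLac-high (log2 change 1.04 ± 0.19, limma adjusted p = 0.0016). LINC00880 (chr3:157081667-157123004) had normalised counts of 97.8, 73.9, 106 and 72.9 in PHLac-low and 229, 260.3, 266 and 63.6 in PHLac-high (log2 change 1.04 ± 0.29, limma adjusted p = 0.008). In LINC00880 repeat 4 went the other way, with the PHLac-high library below the PHLac-low one.

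Repeat 4 was the weak one for the long intergenic genes that rose: their median within-repeat change was 0.95, 1.27, 1.32 and 0.27 in repeats 1 to 4, and LINC00641, LINC00880 and LINC01204 were lower in PHLac-high there. The antisense genes that rose had medians of 0.80, 0.90, 1.21 and 0.27. In the genes that fell, repeat 4 was not weaker: the medians were -0.58, -0.51, -0.57 and -0.85 for long intergenic and -0.75, -0.69, -0.57 and -0.91 for antisense genes. Some falls leaned on that repeat: without it LINC00173 went from -1.60 to -0.90, LINC01122 from -1.54 to -0.92, LINC00482 from -0.76 to -0.50 and LINC01573 from -0.84 to -0.49. LINC00641 went from 0.47 to 0.31 without repeat 3 and no longer passed. All 117 directions were kept without repeat 4, and 116 genes passed (98.9% of all listed genes), 34 higher (58.2%) and 82 lower (40.7%). The 18 long intergenic genes that fell ranged from -1.60 to -0.41 on the log2 scale.

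**Figure D4:**
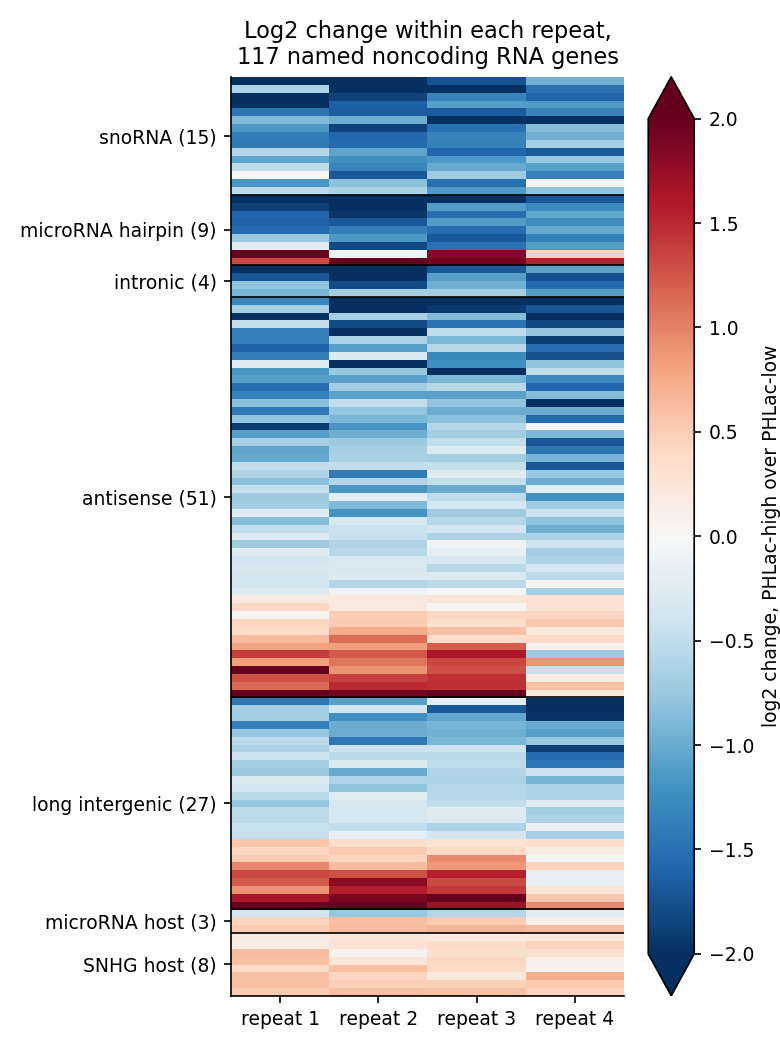
Heat map of the log2 change within each repeat (columns) for all 117 noncoding genes (rows, grouped by class and ordered by change within a class), red for higher and blue for lower in PHLac-high, with the colour ending at 2 on either side. The rising long intergenic and antisense genes are paler in repeat 4, and the snoRNA and SNHG blocks keep 1 sign in each repeat, with some cells near 0, such as SNORD110 in repeat 1 and SNORA52 in repeat 4.

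The 51 antisense genes were the largest class: 38 fell, 12 rose and 1 did not pass, with a median of -0.66. Of all listed genes 41.2% were called lower and 58.7% higher. At a mean under 100, 79.2% of 24 antisense genes fell, and so did 62.6% of all listed genes. ROR1-AS1 (chr1:64094442-64171297), antisense to a receptor tyrosine kinase gene, had normalised counts of 10590.4, 13498, 13334 and 7172 in PHLac-low and 8809, 12783, 13273 and 4520.1 in PHLac-high. Its ranges overlapped widely, and the log2 change was -0.25 ± 0.10 SE (limma adjusted p = 0.034). The change was -0.12 without repeat 4 and -0.25 without repeat 1, and passed in neither fit. THAP9-AS1 (chr4:82893009-82900960) had normalised counts of 3457, 3141, 2696 and 1651 in PHLac-low and 3594, 4432, 3598 and 2212 in PHLac-high and rose in each repeat (log2 change 0.35 ± 0.08, limma adjusted p = 0.004), but was at 0.12 under upper-quartile scaling and did not pass. NCBP2-AS2 (chr3:196942623-196943540) had normalised counts of 1466, 1706, 1719 and 2002 in PHLac-low and 1964, 1963, 1771 and 2407 in PHLac-high (log2 change 0.23 ± 0.07, limma adjusted p = 0.014), was at 0.01 under upper-quartile scaling, and did not pass without repeat 1 (0.17).

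The sense genes of 35 antisense genes are not listed. The genes named from these were chosen after their values were seen. VIM-AS1, beside the gene of the mesenchymal filament vimentin, had normalised counts of 60.9, 57.9, 35.0 and 96.5 in PHLac-low and 109, 123, 89.5 and 181 in PHLac-high. It rose in each repeat (log2 change 1.03 ± 0.17 SE, limma adjusted p = 9.0e-04), with overlapping ranges. ZEB1-AS1, beside the gene of a repressor of epithelial genes, had normalised counts of 443, 426, 399 and 427 in PHLac-low and 246, 343, 267 and 245 in PHLac-high. It fell without overlap (log2 change -0.63 ± 0.12, limma adjusted p = 0.0017). Neither VIM nor ZEB1 is listed. The extremes of the class were GAS8-AS1 (-2.36, 1 to 40 reads per library) and MTUS2-AS1 (2.22, 1 to 52 reads). MTUS2-AS1 was at 1.89 and did not pass without repeat 3, was at 2.90 without repeat 4, and was at 3.12 in edgeR. Without repeat 4, MAP3K14-AS1 went from -0.78 to -0.48 and DBH-AS1 from -1.09 to -0.70, and without repeat 1 DPP9-AS1 went from -0.92 to -0.60 and did not pass, nor did it without repeat 2.

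The largest falls among antisense genes with a mean of at least 50 were of SLCO4A1-AS1, ITGB2-AS1 and IBA57-AS1. IBA57-AS1 (chr1:228164086-228165512) had normalised counts of 96.9, 169, 122 and 12.3 in PHLac-low and 80.7, 31.4, 51.3 and 6.62 in PHLac-high. The PHLac-low library of repeat 4 was far below the other 3, and the change of the gene, -1.17 ± 0.33 (limma adjusted p = 0.0086) was -0.77 without repeat 2.

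A listed sense gene was found for 16 antisense genes and for the intronic SPRY4-IT1. In 14 of the 17 pairs both log2 changes had the same sign, 8 above 0 and 6 below, and in the other 3 the noncoding gene fell while the sense gene rose. Across the 17 pairs the log2 changes had a Pearson correlation of 0.63 and a Spearman correlation of 0.65; the pairs share their libraries, and 14 of the 16 pairs with a position overlap on the genome, so no p is given. The library kit marks strand, but whether the counting used it is not stated in the sources used here, and without it reads of an antisense gene and of its partner cannot be told apart where they overlap. In 9 pairs the difference between the genes had the same sign in all 4 repeats, the most that an exact two-sided sign-flip test over 4 repeats can show (p = 0.13).

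Of those 9 pairs, PARD6G-AS1 and ARHGAP5-AS1 rose more than their sense gene and GATA2-AS1 less, SLCO4A1-AS1, CIRBP-AS1 and RBM5-AS1 fell further, and 3 parted in direction. PARD6G-AS1 (chr18:80147924-80178432) lies across PARD6G, a polarity protein gene, and had normalised counts of 271, 206, 214 and 352 in PHLac-low and 596, 582, 593 and 528 in PHLac-high. Its groups did not overlap and the change of 1.17 ± 0.15 SE on the log2 scale (limma adjusted p = 3.7e-04) exceeded that of PARD6G (0.29 ± 0.10) by 0.88 ± 0.17 (SEM, n = 4; exact p = 0.13).

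GATA2-AS1, opposite the start of the transcription factor gene GATA2, rose by 0.23 ± 0.06 (0.0048 under upper-quartile scaling, where it did not pass) and GATA2 by 0.80 ± 0.11, a difference of -0.57 ± 0.15 (exact p = 0.13). ARHGAP5-AS1 rose by 0.62 ± 0.16 and ARHGAP5 by 0.32 ± 0.07; the difference was 0.30 ± 0.14 (exact p = 0.13).

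SLCO4A1-AS1 (chr20:62663019-62666724) lies wholly within SLCO4A1, an organic anion transporter gene, and had normalised counts of 68.6, 254, 129 and 240.3 in PHLac-low and 43.3, 46.6, 33.4 and 72.8 in PHLac-high. The ranges met through repeat 1 of PHLac-low. The log2 change was -1.67 ± 0.27 SE (limma adjusted p = 8.9e-04), against -0.31 ± 0.07 for SLCO4A1, and the within-repeat differences were -0.58, -2.04, -1.48 and -1.37 (mean -1.37 ± 0.30 SEM, exact p = 0.13). CIRBP-AS1, inside the gene of the cold-inducible RNA-binding protein CIRBP, fell (-1.09 ± 0.15), as did CIRBP (-0.25 ± 0.07), and the difference of -0.84 ± 0.06 had the smallest SEM of the 17 pairs. RBM5-AS1, inside the splicing factor gene RBM5, fell (-1.38 ± 0.33) more than RBM5 (-0.20 ± 0.06), a difference of -1.18 ± 0.33. RBM5-AS1 had only 7 to 52 reads per library. Its difference from RBM5 was -0.24 in repeat 1 and -1.66, -1.19 and -1.64 in repeats 2 to 4.

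Opposite directions were seen in DLG1-AS1, SLC7A11-AS1 and SPRY4-IT1. DLG1-AS1 (-1.59) fell on 2 to 65 reads per library while DLG1, a scaffold protein gene, rose (0.28 ± 0.07), a difference of -1.87 ± 0.43 (exact p = 0.13). SLC7A11-AS1 had normalised counts of 203, 212, 165 and 162 in PHLac-low and 168, 154, 107 and 105 in PHLac-high. SLC7A11, the cystine importer gene it crosses, had normalised counts of 5499.8, 3869, 4914 and 4794 in PHLac-low and 6964, 4679, 7793 and 4231 in PHLac-high. SLC7A11 was lower in PHLac-high in repeat 4 and higher in the other repeats. The antisense gene was lower in each repeat, and the difference of -0.77 ± 0.18 had 1 sign in all of them (exact p = 0.13).

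SPRY4-IT1 had normalised counts of 61.7, 135, 106 and 138 in PHLac-low and 35.1, 38.5, 53.7 and 46.3 in PHLac-high. SPRY4, a feedback inhibitor of receptor tyrosine kinase signalling in whose intron the gene is named to lie, had normalised counts of 10511, 18799, 18844 and 14044 in PHLac-low and 15498, 19683, 20784 and 16339 in PHLac-high. The intronic gene fell without overlap (log2 change -1.27 ± 0.22 SE, limma adjusted p = 0.0012), SPRY4 rose (0.25 ± 0.08), and the difference was -1.52 ± 0.18 (exact p = 0.13).

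In the other 8 pairs the sign of the difference varied between repeats. ITGB2-AS1 (chr21:44921051-44929678) had normalised counts of 127, 61.5, 85.8 and 60.6 in PHLac-low and 47.9, 50.6, 34.6 and 17.2 in PHLac-high (log2 change -1.18 ± 0.26 SE, limma adjusted p = 0.0036). ITGB2, a leukocyte integrin gene, changed by -1.21 ± 0.17, so that the difference was 0.03 ± 0.42. Of the 2 listed leukocyte markers, PTPRC fell (log2 change -1.36) and CD14 rose (0.47). PTPRC had normalised counts of 418, 249, 186 and 197 in PHLac-low and 159, 113, 60.8 and 78.1 in PHLac-high. CD14 had normalised counts of 1324, 1187, 1328 and 307 in PHLac-low and 1918, 1809, 1866 and 364 in PHLac-high. Their part in the change of the ITGB2 pair was not tested. RASAL2-AS1 (chr1:178091508-178093984) starts 157 bases from RASAL2, a Ras inactivator gene, with no overlap, and had normalised counts of 38.6, 38.2, 36.9 and 93.5 in PHLac-low and 94.7, 100.3, 104 and 103 in PHLac-high. The PHLac-low libraries of repeats 1 to 3 were close together, and that of repeat 4 was close to the PHLac-high level (log2 change 1.06 ± 0.25, limma adjusted p = 0.0042; RASAL2 0.59 ± 0.10).

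NCBP2-AS2 starts 26 bases from NCBP2, a subunit of the cap-binding complex, and the pair changed by 0.23 ± 0.07 and 0.19 ± 0.06 (difference 0.04 ± 0.12). SVIL-AS1 (0.46) and SVIL (0.59), CYP1B1-AS1 (0.88) and CYP1B1 (1.16), and ZNF295-AS1 (1.04) and ZBTB21 (0.49) had log2 changes above 0. ZNF295-AS1 was at 0.58 without repeat 1 and did not pass without any of repeats 1 to 3, and without repeat 4 CYP1B1-AS1 was at 1.41 and passed. C1RL-AS1 (-0.42) and C1RL (-0.64), and LENG8-AS1 (-0.66) and LENG8 (-0.26), fell. ZNF295-AS1, with a mean of 49.3 normalised counts, is the gene just below the level of 50 used to choose genes by size of change, and SNORA52, with 50.9, the gene just above.

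**Figure D5:**
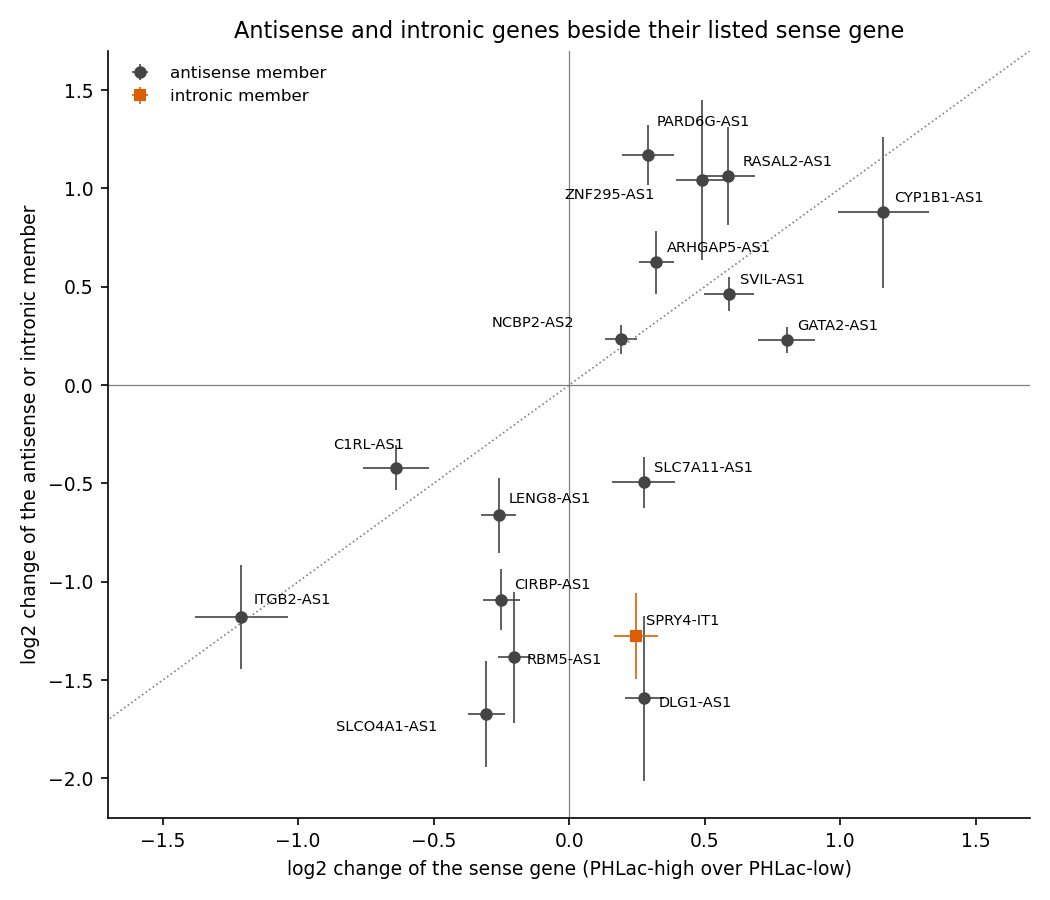
Log2 change (PHLac-high over PHLac-low) of 16 antisense genes (circles) and SPRY4-IT1 (square) against that of the listed sense gene, with limma standard errors as bars and a dotted line of equal change. There are 8 pairs at the upper right, 6 at the lower left and 3 (SLC7A11-AS1, SPRY4-IT1 and DLG1-AS1) at the lower right, where the noncoding gene fell and the sense gene rose.

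All 4 intronic genes fell, with a median log2 change of -1.48. Each had a mean under 100 normalised counts, where 62.6% of listed genes fell. In 3 the libraries of PHLac-low and PHLac-high did not overlap, where 49.3% of listed genes at that level did not. CRHR1-IT1 (chr17:45620328-45655156) had normalised counts of 107, 154, 144 and 69.8 in PHLac-low and 56.1, 96.2, 89.5 and 31.8 in PHLac-high and was the exception, lower in each repeat with overlapping ranges (log2 change -0.85 ± 0.16 SE, limma adjusted p = 0.0021). N4BP2L2-IT2 (chr13:32504506-32509395) had normalised counts of 22.3, 19.7, 29.3 and 20.5 in PHLac-low and 4.68, 3.04, 8.35 and 9.27 in PHLac-high on 3 to 61 reads (log2 change -1.79 ± 0.39, limma adjusted p = 0.0032). ERI3-IT1 was lower by a similar amount (-1.69).

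The proteins that make, load or destroy these RNAs were looked up in 4 lists. Of all listed genes 58.7% rose. Of those with a mean of 1000 or more, 74.2% rose, with a median log2 change of 0.28. Of 22 genes of snoRNA particle assembly, 10 were listed and all 10 rose (median log2 change 0.37). They include the methyltransferase FBL (0.27 ± 0.06 SE) and its partners NOP56 (0.37 ± 0.06), NOP58 (0.50 ± 0.06) and SNU13 (0.24 ± 0.06), and the pseudouridine synthase DKC1 (0.39 ± 0.06) with GAR1 (0.30 ± 0.06), all core proteins of the particles. NOP58 had normalised counts of 5459, 5141, 6129 and 7966 in PHLac-low and 7949.6, 8072, 7634 and 11289.5 in PHLac-high, with repeat 4 high on both sides and every repeat higher in PHLac-high. The assembly factors NAF1 (0.26) and NUFIP1 (0.37), the cap methyltransferase TGS1 (0.38) and the nucleolar NOLC1 (0.42) moved the same way.

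Of 18 microRNA processing genes 4 were listed and rose: AGO2, the slicing Argonaute (0.35 ± 0.09), TNRC6A (0.29 ± 0.08), RAN (0.25 ± 0.05) and DDX5. Here too, 58.7% of all listed genes rose, and 74.2% of those with a mean of 1000 or more. Of 19 nonsense-mediated decay genes 8 were listed and rose, from NCBP2 (0.19 ± 0.06) to EIF4A3 of the exon junction complex (0.73 ± 0.07), with the kinase SMG1 at 0.40 ± 0.09. EIF4A3 had normalised counts of 8548, 7889, 7661 and 8404 in PHLac-low and 14846, 11719, 11740.1 and 15954 in PHLac-high, with no overlap. Of 22 nuclear exosome genes 6 were listed and rose, among them the nuclease DIS3 (0.45 ± 0.06), PAPD5, a poly(A) polymerase of the exosome pathway (0.52 ± 0.07), and ZCCHC8 of its adaptor (0.38 ± 0.07). Under upper-quartile scaling 9 of the 28 genes of the 4 lists passed, all higher, where 64.4% of all listed genes passed and 23.2% were higher, and NCBP2 was below 0. Without the repeat block 11 of the 28 passed, all higher, where 31.0% of all listed genes passed and 20.3% were higher.

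A list of 37 named long noncoding RNA genes held LINC00657 and LINC00152 and 8 other listed genes, 7 higher and 1 lower. Of all listed genes 58.7% were higher and 41.2% lower. RPPH1, the RNA of ribonuclease P, had normalised counts of 154, 117, 123 and 134 in PHLac-low and 296, 293, 304 and 205 in PHLac-high (log2 change 1.04 ± 0.15 SE, limma adjusted p = 5.5e-04), with a clear gap. RMRP, the RNA of a related ribonuclease, rose by 0.99 ± 0.24 at 16.4 to 57.3 normalised counts. LUCAT1 rose by 0.72 ± 0.18 and RN7SL1, the signal recognition particle RNA, by 0.50 ± 0.15. The ranges of RN7SL1 overlapped, and its change was -0.0065 in repeat 1. The snoRNA host ZFAS1 (0.28 ± 0.08), DANCR (0.45 ± 0.08) and UCA1 (0.46 ± 0.06) also rose, and MIAT fell (-0.90 ± 0.23). ZFAS1 was at -0.0068 in repeat 4. RMRP and RPPH1 are small structured RNAs that, unlike intronic snoRNAs, have their own promoters. Since messenger RNA was selected for the libraries, counts of RMRP, RPPH1 and RN7SL1 may not measure the amount of these RNAs. Of the 8, 3 passed without the repeat block, where 31.0% of all listed genes did, and 6 passed under upper-quartile scaling (64.4% of all listed genes), without ZFAS1 and RN7SL1.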

How the data were processed

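The authors deposited 1 table of 3666 genes with a normalised signal per library, their log2 fold change and an adjusted p-value. Per the submitters' processing notes, STAR, SAMtools, Subread and DESeq2 were used with hg38; roles, versions and the strand setting are not given in the sources used here. Per the labels' protocols, RNA came from sorted cells by column, messenger RNA was selected, and libraries were strand-specific (dUTP) and paired end. The deposited signal is reads divided by a size factor (0.755 to 2.09): 100% of values were whole multiples of 1 read within 0.01 read.

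Changes were fitted with limma 3.58.1 (R 4.3.3), with a mean-variance trend, on log2(normalised count + 1) over all 3666 genes, with the repeat number as a block and Benjamini-Hochberg adjustment at 0.05. A pseudocount of 1 understates changes of low genes. The series text pairs the libraries by repeat; deviations of same-numbered libraries correlated at 0.53 to 0.76, and other pairs at -0.59 to 0.27. Alternatives were no block, a pseudocount of 0.1, upper-quartile scaling, a mean of at least 50, leaving out each repeat, an absolute log2 change of at least 0.5, and edgeR 4.0.16 and DESeq2 1.42.0 on the recovered reads. The upper quartile was that of the listed genes alone. Tested on simulated data for PHLac-high against PHLac-low (3666 genes, 100 changed at each size), the fit recovered 99% of genes changed by 0.75 on the log2 scale and 100% of those changed by 1.5, with 22 false calls. Every simulated gene had the same dispersion and most did not change, whereas all listed genes were selected as differing. These figures are therefore not error rates for the listed genes. Pairs of genes were compared by an exact sign-flip test over the 4 repeats.

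The classes, lists and tests were chosen with earlier results of these data known, and a gene enters the table only through the authors' own test on these libraries, so counts of calls describe and do not support. In each class the 3 genes with the highest mean count were described in every library, and so were the 6 that rose most and the 6 that fell most at a mean level of 50 or above; every small RNA, every host gene and every antisense gene with a listed sense gene was named, and libraries of further genes were added. A gene among those that fell most is not reported here. Positions are from GENCODE release 29 (GRCh38): 104 genes matched by symbol, 10 by a RefSeq alias and 3 (LINC00673, SPRY4-IT1 and LINC00106) by neither. Mature microRNAs and transcript starts are from RefSeq (GRCh38.p14), with a table of promoters from 250 bases before to 50 after each start. Counting error limits genes with few reads.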

Additional observations from a re-analysis of the deposited data

Results flagged for a closer look

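In 68 groups of 4 libraries, 4 held a library far from the other 3, judged by the gap to its nearest neighbour as a share of the range of the group against Dixon's 95% critical value, all on log2(normalised count + 1). About 1 in 20 groups, or 3.4 of 68, pass that limit by chance. For MIR5047 the PHLac-low library of repeat 4 was the highest (0.934 of the range on that scale), at 606 normalised counts against 229.8 to 244.9. RASAL2-AS1 was also highest in that library (0.953). LINC00880 was lowest in the PHLac-high library of repeat 4 (0.895), at 63.6 against 229 to 266. The mean log2 level of the long intergenic class was lowest in the same PHLac-high library (0.969). All 4 were libraries of repeat 4, which stood apart along the leading principal component too.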

How the results depend on the processing

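Without the block by repeat, the fit that ignores the pairing, 1135 listed genes passed in place of 3663, 54 noncoding genes in place of 116 (13 higher and 41 lower), 11 machinery genes in place of 28 and 3 further long noncoding genes in place of 8. Upper-quartile scaling left 2360 listed genes and 9 machinery genes, and moved the median change to -0.94 for all noncoding, -0.68 for long intergenic, -0.88 for antisense, 0.13 for SNHG and 0.19 for microRNA host genes; SNHG16 turned to -0.021, the one noncoding gene to change direction. A mean of at least 50 left 80 noncoding genes, all past the threshold, with medians of -0.45 for all of them, -1.06 for 2 intronic and -0.94 for 5 small RNA genes. A log2 change of at least 0.5 left 1424 listed genes and 86 noncoding genes. edgeR and DESeq2 on reads each called all 117. Without 1 repeat, 3468 to 3627 listed and 108 to 116 noncoding genes passed. The difference between antisense and sense gene ranged from -0.47 to 0.042 for CYP1B1-AS1, from -0.37 to 0.23 for ITGB2-AS1 and from -0.030 to 0.14 for NCBP2-AS2; the cause was not tested. Of 279 values of the 28 genes given in full, 260 kept direction and side of the threshold, 18 lost the call and 1 changed direction. Few reads limit the small RNA genes, of which 5 of 24 had a mean of at least 50.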
